A study of Mus musculus with 29 samples.

Results

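The comparison described here set inflamed colons of Cygb-/- mice against inflamed colons of wild-type (WT) mice. Its members were chosen by sample label alone and are 13 of the 29 arrays of the series, namely all 5 arrays of AOM/DSS-treated Cygb-/- mice and all 8 arrays of AOM/DSS-treated WT mice. The other 16 arrays, 8 of untreated Cygb-/- and 8 of untreated WT mice, are used to show where a genotype difference was also present without treatment. Each array measured colonic RNA of 1 female mouse, and all mice were of the C57BL/6 strain and 18 to 24 weeks old. Treated mice received azoxymethane (AOM), a carcinogen, at 7.4 mg/kg and, from week 2, dextran sulfate sodium (DSS), which injures the colonic epithelium, at 3% for 7 days. The labels give 1 DSS cycle and week 5 for these colons, whereas the methods of the study place them after a further cycle and at a later week. Untreated mice of both genotypes received neither agent. Cygb-/- mice lack exon 2 of Cygb in every cell. The deletion was made in embryonic stem cells of another strain, completed with a Cre deleter, and crossed back to C57BL/6, and Cygb-/- and WT animals were then bred as separate lines.

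Cytoglobin, the product of Cygb, is a heme protein of fibroblast-like cells in many organs. It binds oxygen and reacts with nitric oxide and other reactive species. In the colon these cells lie below the epithelium and around the crypts. The study stained the protein in such cells, not in epithelium, but found more Cygb mRNA in cultured epithelial crypts than in intact colon. Experimental colitis brings neutrophils and macrophages into the wall, drives the crypts to divide and lowers the genes of the mature absorptive epithelium. The colon also runs a circadian clock, in which BMAL1 and CLOCK activate genes that then repress them.

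The arrays carried 41345 probe sets, of which 23521 were annotated with exactly 1 gene. With 1 probe set taken for each, these gave 22180 genes. The median probe set of an array had a value of 4.76 to 4.88 and the lower quartile was 3.26 to 3.37. All values below are log2 array values as deposited, and a difference is the mean of Cygb-/- minus the mean of WT arrays. It was called when the adjusted p from limma, taken over all 41345 probe sets, lay below 0.05. A fold is a ratio of array values and understates the ratio of transcripts where one group lies near the lower quartile. In whole colon, fewer cells of a type and less RNA per cell cannot be told apart. The labels do not state that colons came from separate litters or treatment days. The study's statistical methods mention 1 cohort of AOM/DSS Cygb-/- mice and more than 1 of WT mice, beside tumor counts. Whether this holds for the mice of these arrays is not stated there.

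The targeted gene followed the labels on every array. Cygb stood at 6.48, 6.25, 6.26, 6.48 and 6.03 in the inflamed Cygb-/- colons, against 8.41 at the lowest, 9.13 at the median and 9.29 at the highest in the inflamed WT colons. The groups did not overlap, and the difference was -2.73 (standard error 0.14, adjusted p = 3.1e-07 from limma). One array stood apart from its label in another gene. In inflamed Cygb-/- replicate 3, Xist, the transcript that coats the inactive X in females, had a value of 3.82, against 10.64 to 10.91 in the other 4 inflamed Cygb-/- arrays and 10.75 to 10.93 in the WT arrays. Y-linked genes were not raised on that array, with a mean value of 2.64, the lowest of the 5 Cygb-/- arrays (2.64 to 2.73) and within the range of the WT arrays (2.55 to 2.78). The median correlation of that array with its group was 0.987, between 0.984 and 0.989 for the others. Genes of squamous epithelium, which the colon lacks above the anal margin, had a mean value of 5.05 to 6.47 in the inflamed Cygb-/- and 4.90 to 7.40 in the inflamed WT colons. Genes of colonic identity had 8.84 to 9.21 and 8.99 to 9.32.

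Of the 22180 genes, 36 (0.162%) differed between the inflamed genotypes, 12 higher (0.0541%) and 24 lower (0.108%) in Cygb-/- colons. Over all probe sets there were 14 higher (0.0339%) and 55 lower (0.133%), 69 in all (0.167%). In each of the 36 genes the Cygb-/- and WT arrays did not overlap. Over all genes tested, every Cygb-/- array lay above every WT array for 66 genes (0.298%) and below for 92 (0.415%). Of the 36 differences 28 were at least 1.5-fold and 13 at least 2-fold. At an unadjusted p below 0.05 there were 2339 genes (10.5%), 5.86% higher and 4.69% lower. The median difference over all genes was 0.01 on the log2 scale, with 53.4% positive and 46.6% negative, and 0.775% were at least 1.5-fold higher and 0.559% at least 1.5-fold lower whatever their p. The last genes inside the threshold were H2ac20, Zfyve21 and Pold2 (adjusted p = 0.0385, 0.0411 and 0.0414 from limma), and the first outside were Alg3 and Pdzd3 (0.0516 and 0.062).

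The 12 higher genes were BC018473, St6galnac1, Ccnb1ip1, Ces1g, Arntl, Jhy, E2f8, Gm11714, Abca5, Sf3b5, H2ac20 and Pold2, with differences from 4.55 down to 0.46. Among the 24 lower genes were Nxpe4, St3gal4, Nxpe2, Pnp2, Plac9a and Cphx1, and the clock genes Dbp, Per3, Ciart, Tef, Cry2 and Hlf. Cygb itself and Mettl23, a gene of the same chromosome, were also among the lower genes. The others were 4930581F22Rik, Gm3219, Npy4r, Fam124a, Tmem25, Slc37a4, Mir23b, Scd1, Ankrd12 and Zfyve21, between -0.91 and -0.43.

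**Figure D1:**
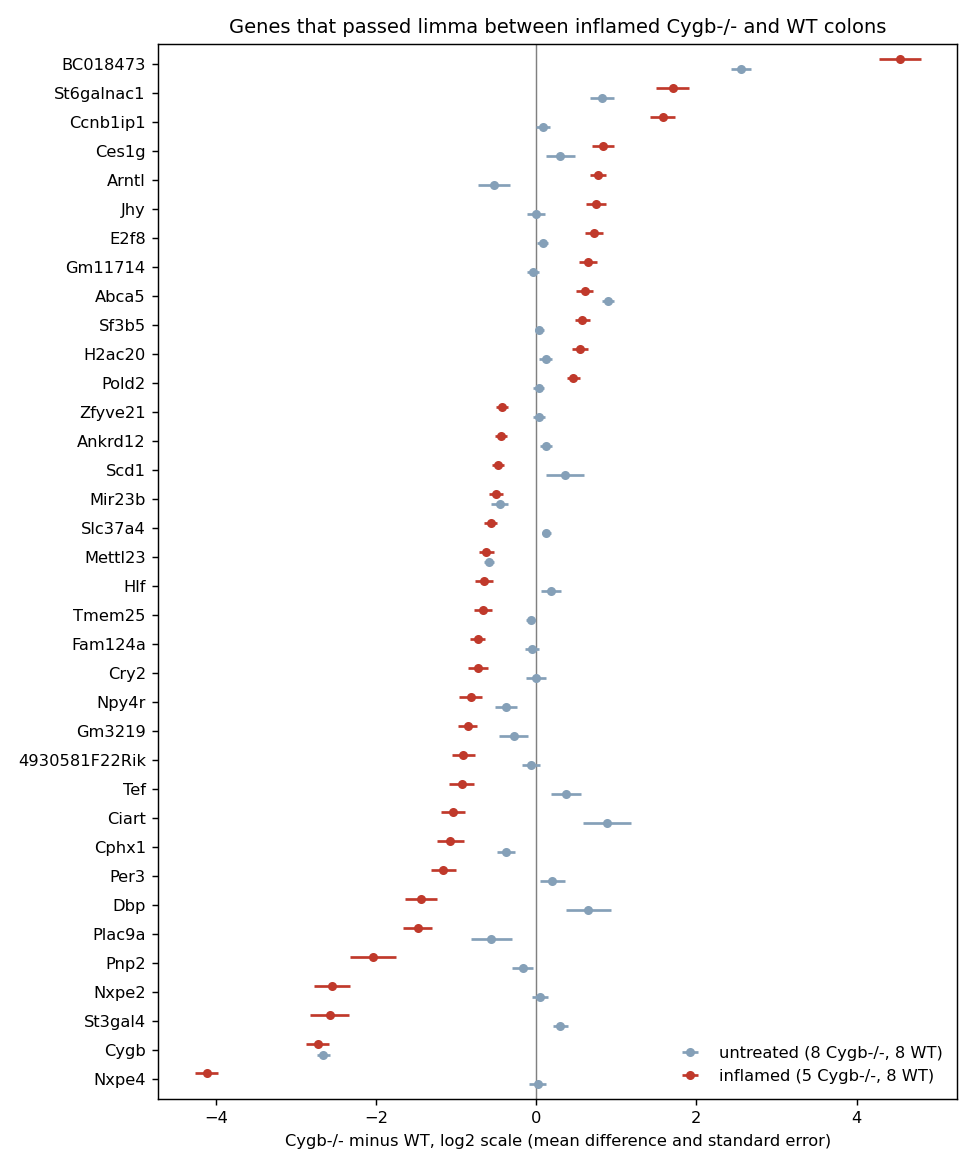
Difference between Cygb-/- and WT colons on the log2 scale (x axis, mean and standard error) for the 36 genes called in inflamed colons (y axis), in inflamed (red) and untreated colons (blue). The inflamed differences run from -4.12 for Nxpe4 to 4.55 for BC018473, while Nxpe4 lies at 0.02 in untreated colons.

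The same genotype difference was mostly absent as a call in untreated colons. There, 9 of 22180 genes (0.0406%) passed limma, 5 higher (0.0225%) and 4 lower (0.018%), likewise 9 of all probe sets (0.0218%, with 0.0121% higher and 0.00967% lower). Of the 36 genes 4 were among them, namely Cygb, BC018473, Mettl23 and Abca5. Of the 36, 21 had the same sign in untreated colons. The difference itself differed between inflamed and untreated colons for 19 of the 36 in the interaction test of limma over all 29 arrays, which shares the 13 inflamed arrays. Over all genes 41 (0.185%) passed it, 17 higher (0.0766%) and 24 lower (0.108%), and 61 of the probe sets (0.148%, with 0.046% higher and 0.102% lower). For the other 17 no difference between the states passed the test, which does not show that they were alike.

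The sialyltransferases, enzymes that cap glycan chains with sialic acid, held 1 of the 12 higher and 1 of the 24 lower genes. St6galnac1, which acts on the O-linked glycans of mucins, stood at 7.15, 6.56, 7.23, 7.04 and 6.52 in inflamed Cygb-/- colons and at 4.67, 5.37 and 5.68 (lowest, median and highest) in inflamed WT colons. Every Cygb-/- array was above every WT array, by 1.70 on average (3.25-fold, standard error 0.21 on the log2 scale, limma adjusted p = 0.00248). In untreated colons its difference was 0.82 (adjusted p = 0.0849 from limma). St3gal4, which adds sialic acid to the galactose at the end of a chain, stood at 6.94, 6.20, 7.36, 6.11 and 6.15 in inflamed Cygb-/- colons and at 8.48, 9.21 and 9.68 in WT. All 5 Cygb-/- arrays were low, with replicates 1 and 3 the least so, and the groups lay 2.58 apart (5.99-fold, standard error 0.25 on the log2 scale, limma adjusted p = 0.000173). In untreated colons the Cygb-/- arrays lay between 9.79 and 10.29 and the WT arrays between 9.33 and 10.03, a difference of 0.30, and the interaction was -2.88 (standard error 0.25, adjusted p = 3.88e-08 from limma). Of all 20 measured sialyltransferases 11 had a positive and 9 a negative difference, with a median of 0.03. Besides those 2 genes, St3gal1 had 0.34 (adjusted p = 0.487) and St6galnac3 0.23 (adjusted p = 0.618 from limma).

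Of the NXPE family, epithelial proteins with a neurexophilin and an esterase-like domain, 2 of 4 measured members were lower and 0 higher. Over all genes the shares were 0.108% and 0.0541%. Nxpe4 stood at 4.19, 4.36, 4.16, 4.23 and 4.51 in the inflamed Cygb-/- colons. In the inflamed WT colons it stood at 7.88, 8.50 and 8.74 (lowest, median and highest). The 5 Cygb-/- arrays were tightly grouped and more than 3 log2 units below the nearest WT array, 17.4-fold lower in the means (standard error 0.15 on the log2 scale, adjusted p = 4.82e-09 from limma). Nxpe2 was spread more widely in Cygb-/- colons, at 6.23, 7.16, 5.79, 6.57 and 7.29, against 8.80, 9.15 and 9.53 in WT. The arrays of Nxpe2 did not overlap either, and its mean was 5.87-fold lower (adjusted p = 7.28e-05 from limma). In untreated colons both genes lay at WT levels in the Cygb-/- arrays, 7.93 to 8.43 for Nxpe4 and 9.49 to 10.02 for Nxpe2. The interaction was -4.13 (standard error 0.19, adjusted p = 9.2e-15) and -2.60 (standard error 0.24, adjusted p = 7.68e-08 from limma). Nxpe5 and Nxpe3 had differences of 0.33 and -0.07 and were not called (limma adjusted p = 0.629 and 0.934).

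The highest gene was BC018473, a transcript without a known role on chromosome 11, where Cygb lies. It stood at 9.07, 7.57, 8.37, 7.58 and 7.10 in inflamed Cygb-/- colons, against 3.08, 3.41 and 3.74 (lowest, median and highest) in WT, where it lay near the lower quartile of the arrays. All 5 Cygb-/- arrays were far above WT (difference 4.55, standard error 0.26, adjusted p = 4.73e-07 from limma), and in untreated colons the Cygb-/- arrays, between 5.77 and 6.63, also lay above the WT arrays, between 3.35 and 3.92. The difference was larger in inflamed than in untreated colons by 1.99 (standard error 0.28, adjusted p = 0.000403 from limma). In the order of the measured genes on chromosome 11, BC018473 and St6galnac1 were neighbours, 3 genes separated them from Cygb and 1 from Mettl23. Mettl23, a protein methyltransferase, was lower by nearly the same amount in both states, -0.63 in inflamed (adjusted p = 0.0105) and -0.59 in untreated colons (adjusted p = 0.000229 from limma). Abca5, a lipid transporter of the same chromosome, was higher in both, by 0.61 (adjusted p = 0.037) and 0.90 (adjusted p = 1.67e-05 from limma).

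Chromosome 11 held 7 of the called genes among 1649 tested (0.424%), chromosome 9 held 7 of 1254 (0.558%) and chromosome 14 held 7 of 790 (0.886%), beside 0.162% over all genes. Every other chromosome held 0 to 3. On chromosome 9, Nxpe4 and Nxpe2 were neighbours in the order of measured genes, as were St3gal4 and 4930581F22Rik, and 11 genes lay between Slc37a4 and Tmem25. On chromosome 14, Plac9a and Cphx1 were neighbours, 4 genes lay between Npy4r and Gm3219, and 6 between Ccnb1ip1 and Pnp2. None of the 14 genes called on chromosomes 9 and 14 was called in untreated colons. Genotypes at these loci were not measured here.

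Slc37a4, the glucose-6-phosphate transporter of the endoplasmic reticulum, was among the chromosome 9 genes with the least spread, between 6.92 and 7.19 in inflamed Cygb-/- and between 7.46 and 7.86 in inflamed WT colons. It was lower by 0.57 (standard error 0.08, adjusted p = 0.00884), against 0.12 in the other direction in untreated colons (interaction adjusted p = 0.000161 from limma). Tmem25, a membrane protein, and the transcript 4930581F22Rik were lower by 0.67 and 0.91 (limma adjusted p = 0.0251 and 0.0205). Jhy, needed for cilia in the mouse brain, was the 1 higher gene of chromosome 9. It stood at 4.22, 3.77, 3.76, 3.81 and 3.49, against 2.80, 3.09 and 3.38 in WT, so that the groups came close to each other at low values (difference 0.74, adjusted p = 0.0266 from limma).

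On chromosome 14, Pnp2, a purine nucleoside phosphorylase, stood at 4.32, 2.96, 3.51, 3.76 and 3.39 in inflamed Cygb-/- colons and at 4.86, 5.35 and 6.46 in WT. The groups did not overlap (difference -2.04, standard error 0.29, adjusted p = 0.00743 from limma), and the untreated Cygb-/- arrays lay between 4.89 and 5.74, as did most untreated WT arrays (5.04 to 5.98). Ccnb1ip1, a ubiquitin ligase of meiotic crossing over, stood at 4.31, 4.15, 4.73, 4.23 and 3.90 in inflamed Cygb-/- colons and at 2.35, 2.65 and 3.28 in WT. Both untreated groups also lay at or below 3.27, under or near the lower quartile of the arrays, and the difference was 1.58 (standard error 0.16, adjusted p = 0.00031), with an interaction of 1.49 (adjusted p = 2.09e-05 from limma).

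Plac9a, a small secreted protein, stood at 7.27, 6.78, 7.15, 7.23 and 6.92 in inflamed Cygb-/- and at 7.93, 8.45 and 9.13 in inflamed WT colons (difference -1.48, standard error 0.18, adjusted p = 0.0019 from limma). The untreated Cygb-/- arrays of Plac9a spread from 6.82 to 8.71, wider than the other groups. Its other 2 probe sets, with 1 shared profile, were lower by 1.55, as were the probe sets of the Tmem254 genes, which the array cannot separate, by 1.38 to 1.56. Cphx1, a homeobox gene, was lower by 1.07 in its chosen probe set and by 1.11 in another, and the Duxbl probe sets, likewise of several genes, by 0.81 to 0.92. Npy4r, the receptor of pancreatic polypeptide, was lower by 0.82 (adjusted p = 0.037), Fam124a by 0.73 (adjusted p = 0.00272) and Gm3219 by 0.86 (adjusted p = 0.00743 from limma). Fam124a lay between 6.11 and 6.56 in inflamed Cygb-/- arrays and between 6.91 and 7.35 in inflamed WT arrays, and from 6.39 to 7.07 in both untreated groups.

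**Figure D2:**
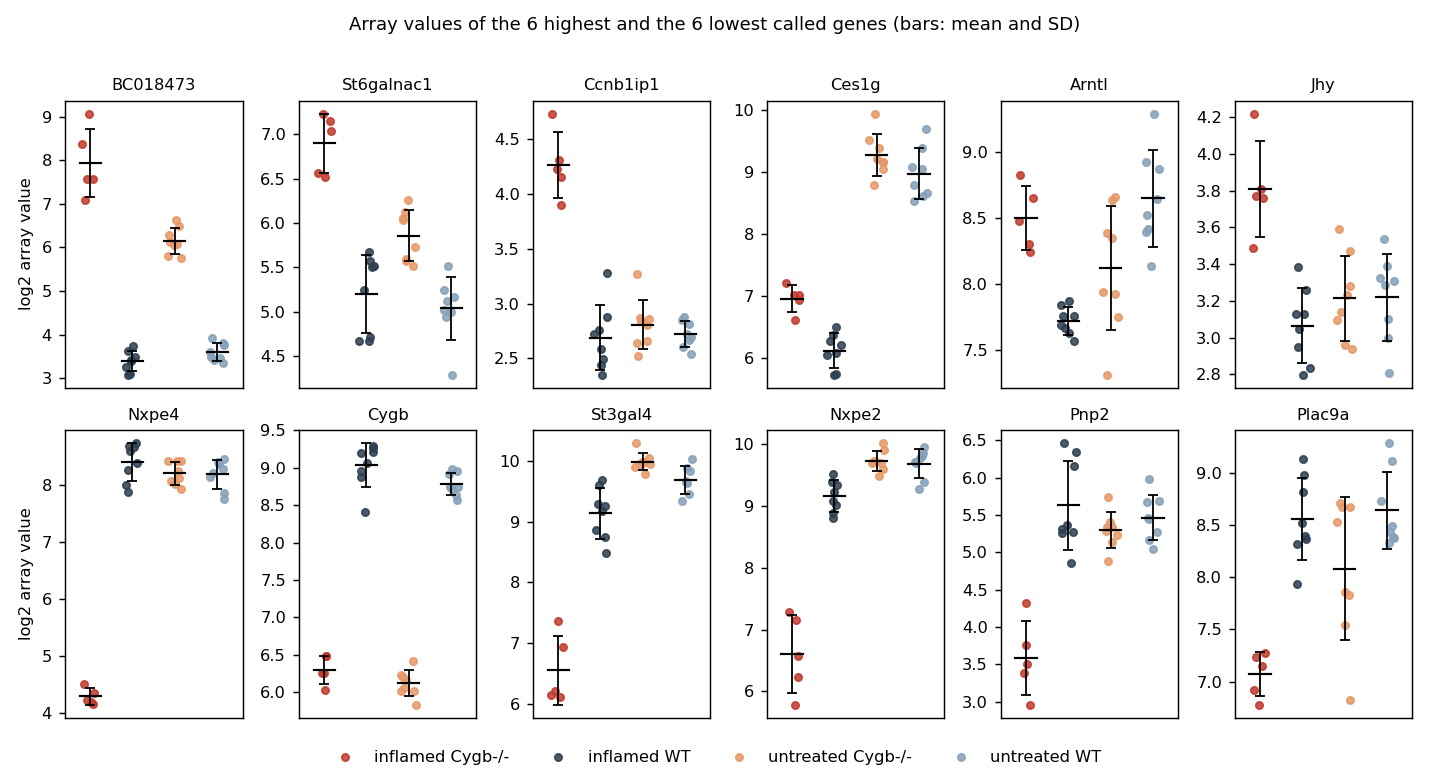
Log2 array values (y axis, own scale for each gene) of the 6 highest and the 6 lowest called genes, 1 point per array in the 4 groups, with mean and SD. Inflamed Cygb-/- arrays of Nxpe4 lie at 4.16 to 4.51 and the other 3 groups at 7.77 to 8.74, whereas Cygb is low in both Cygb-/- groups.

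The clock genes that peak with PER held 6 of the 24 lower genes. Of 11 measured members 6 were lower and 0 higher, beside 0.108% and 0.0541% of all genes. A negative difference was found in 10, beside 46.6% of all genes, with a median of -0.69 beside 0.01. In untreated colons 10 of the 11 had a positive difference, with a median of 0.29 and 0 called, and for 6 the difference between the states passed the interaction test. All 3 PAR bZIP factors, the output regulators Dbp, Tef and Hlf, were lower, as were the repressors Per3, Cry2 and Ciart. Per2 had no probe set of its own. The mean value of the list lay between 6.81 and 7.16 in the inflamed Cygb-/- and between 7.28 and 8.01 in the inflamed WT arrays. The hour at which colons were taken is not given in the sources used here.

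Clock genes of this phase are read through short promoter elements, of which the E-box (CACGTG, bound by BMAL1 and CLOCK) and the D-box (TTATGTAA or TTACGTAA, bound by the PAR bZIP factors) are the best known. The promoters of 3 called members are shown because they hold these letters, from 250 bases before to 50 after the start, 5′ to 3′ on the gene's strand, as RefSeq gives them for GRCm38.p6. They are Ciart (chr3:95882179-95882478, minus strand), Per3 (chr4:151044616-151044915, minus strand) and the first of the starts of Tef (chr15:81802423-81802722, plus strand). Capitals mark the E-box in Ciart and Tef and the D-box in Per3.
Ciart: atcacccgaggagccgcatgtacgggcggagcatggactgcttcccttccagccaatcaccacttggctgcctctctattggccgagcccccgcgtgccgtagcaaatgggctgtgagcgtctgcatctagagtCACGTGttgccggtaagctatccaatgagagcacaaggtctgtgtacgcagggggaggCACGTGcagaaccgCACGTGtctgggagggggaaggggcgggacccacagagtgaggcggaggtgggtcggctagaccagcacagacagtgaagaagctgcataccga
Per3: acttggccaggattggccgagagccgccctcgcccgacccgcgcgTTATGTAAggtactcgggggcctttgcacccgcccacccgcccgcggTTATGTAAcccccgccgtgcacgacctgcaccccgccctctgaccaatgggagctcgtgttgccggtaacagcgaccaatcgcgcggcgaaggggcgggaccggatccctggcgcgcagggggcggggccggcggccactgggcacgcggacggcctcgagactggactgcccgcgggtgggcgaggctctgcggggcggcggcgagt
Tef: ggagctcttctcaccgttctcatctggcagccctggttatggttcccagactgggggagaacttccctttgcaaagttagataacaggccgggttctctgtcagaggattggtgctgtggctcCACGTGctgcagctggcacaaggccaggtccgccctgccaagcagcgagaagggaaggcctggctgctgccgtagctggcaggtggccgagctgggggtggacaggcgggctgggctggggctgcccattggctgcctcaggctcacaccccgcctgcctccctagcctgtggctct
The E-box stood 3 times in Ciart, at 116, 58 and 44 bases before the start, and 1 time in Tef, at 127 bases. The D-box stood 2 times in Per3, at 205 and 158 bases. Of 32851 promoters of this length 7.15% held the E-box and 1.06% the D-box on either strand. Counted per gene, with a gene included where any of its starts had the motif, the shares were 8.09% and 1.23%. Of the 10 PER-phase genes with a promoter 4 held the E-box, namely Ciart, Tef, Per1 and Bhlhe41, and of 19 lower genes with a promoter 5 did. Dbp, Hlf and Cry2 had neither motif in this window. The core of the element read by ROR and REV-ERB (AGGTCA, in 16.3% of promoters) stood in 1 promoter of Arntl, after its start.

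Dbp stood at 8.49, 7.53, 7.88, 7.70 and 7.79 in inflamed Cygb-/- colons and at 8.77, 9.39 and 9.78 (lowest, median and highest) in WT. Replicate 1 was the highest Cygb-/- array and still below every WT array, with a difference of -1.44 (standard error 0.20, adjusted p = 0.00647 from limma). In untreated colons the Cygb-/- arrays reached from 8.85 to 10.33 and the WT arrays from 8.21 to 9.91, a difference of 0.65, and the interaction was -2.08 (standard error 0.38, adjusted p = 0.00976 from limma).

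Per3, the called period gene of this group, stood at 6.10, 5.95, 5.83, 5.64 and 5.97 in inflamed Cygb-/- and at 6.65, 7.13 and 7.56 in inflamed WT colons. Per3 was 2.24-fold lower (adjusted p = 0.00359), with an interaction of -1.36 (adjusted p = 0.00479 from limma). Per1 was measured and not called. Ciart, whose promoter holds 3 E-boxes, stood at 5.68, 5.30, 5.58, 5.17 and 5.43 against 6.12, 6.40 and 6.86. It was 2.06-fold lower (adjusted p = 0.00743), while in untreated colons its difference was 0.88 in the other direction (adjusted p = 0.521 from limma), with Cygb-/- arrays from 5.97 to 7.67.

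Tef stood at 5.38, 4.74, 5.16, 4.80 and 5.08, against 5.54, 5.88 and 6.58 in WT, and was lower by 0.93 (adjusted p = 0.0279 from limma). Another probe set of Tef had -0.27 and was not called (limma adjusted p = 0.203). Cry2 and Hlf were lower by 0.73 and 0.66 (adjusted p = 0.03 and 0.0365 from limma), with arrays from 5.75 to 6.31 against 6.33 to 7.04 for Cry2 and 4.93 to 5.32 against 5.57 to 6.19 for Hlf. The Cry2 groups were all but touching.

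Arntl, which encodes BMAL1, was the 1 called gene of the opposite phase, among 7 measured members with a median difference of 0.06 (0.23 without Cygb-/- replicate 4 and 0.02 without WT replicate 4). Arntl stood at 8.24, 8.65, 8.30, 8.82 and 8.48 in inflamed Cygb-/- colons and at 7.57, 7.72 and 7.88 in WT. All Cygb-/- arrays were higher (difference 0.77, standard error 0.10, limma adjusted p = 0.00272). In untreated colons the order was the other way, with a difference of -0.53 that was not called, and the interaction was 1.30 (adjusted p = 0.0143 from limma). Its partner Npas2 and the repressor Nfil3 had 0.55 and 0.74 and were not called (limma adjusted p = 0.136 and 0.252), and Rora had -0.10.

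**Figure D3:**
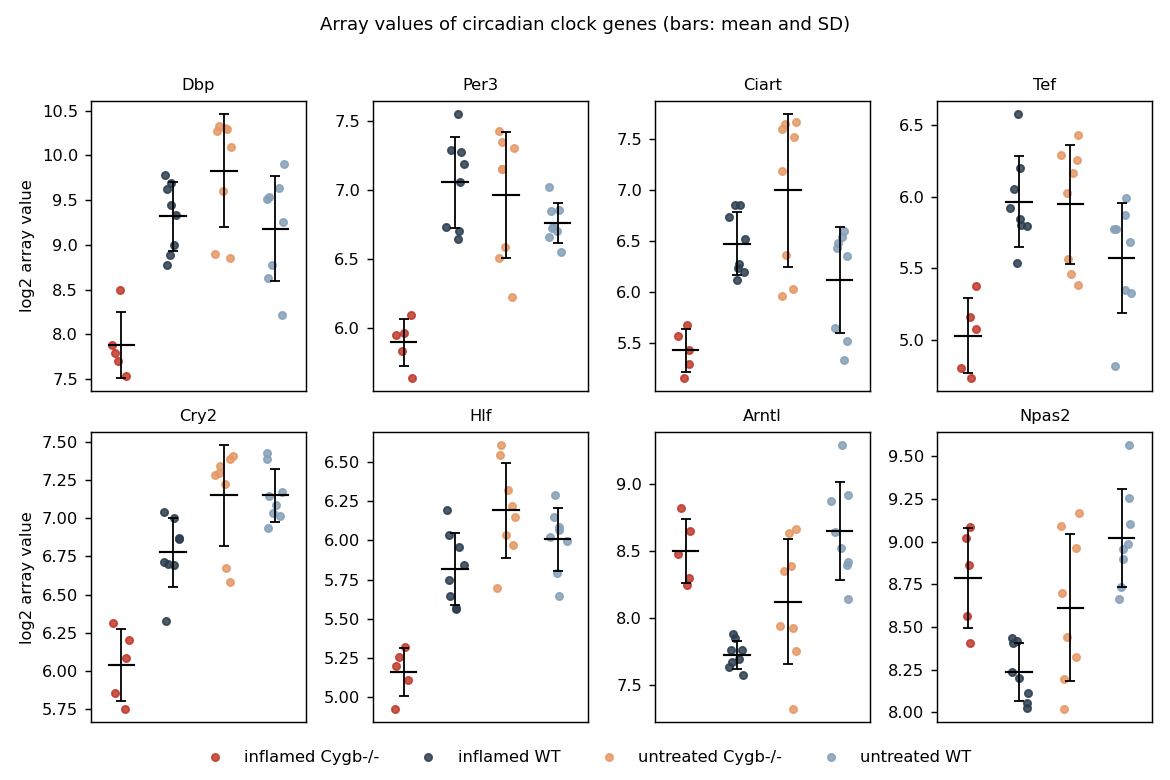
Log2 array values (y axis, own scale for each gene) of 6 PER-phase clock genes and of Arntl and Npas2, 1 point per array in the 4 groups, with mean and SD. The 5 inflamed Cygb-/- arrays of Dbp lie at 7.53 to 8.49, below the WT arrays at 8.77 to 9.78, and those of Arntl lie above.

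Of the called genes with metabolic roles, Ces1g, a carboxylesterase that hydrolyses lipid esters, stood at 7.01, 6.61, 7.01, 7.21 and 6.93 in inflamed Cygb-/- colons and at 5.73, 6.14 and 6.50 in WT. It was higher by 0.84 (standard error 0.14, adjusted p = 0.026 from limma), and both inflamed groups lay below the untreated arrays (8.53 to 9.94). Among the 14 measured carboxylesterases Ces1g alone was called, and 9 had a negative difference (median -0.12, and -0.01 without Cygb-/- replicate 3). Scd1, which makes monounsaturated fatty acids, lay between 9.15 and 9.31 in Cygb-/- and between 9.50 and 9.95 in WT arrays, lower by 0.48 (adjusted p = 0.0205 from limma). It was the 1 called gene of 22 of fatty acid metabolism, whose median was -0.01. Acadm, Acly and Acaca had -0.37, -0.24 and -0.22 and were not called.

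Mir23b, a microRNA gene, lay between 5.27 and 5.75 in inflamed Cygb-/- and between 5.92 and 6.23 in inflamed WT arrays. It was lower by 0.50 (adjusted p = 0.032), and by 0.46 without a call in untreated colons (adjusted p = 0.269 from limma). The probe set does not tell the precursor from its mature products. The mature 5p arm is shown to identify the locus (RefSeq, GRCm38.p6, chr13:63300492-63300512, plus strand), with its seed, bases 2 to 8, in capitals.
mmu-miR-23b-5p: gGGUUCCUggcaugcugauuu

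Besides the named genes, 8 called probe sets were annotated with several genes and 20 with none. Of the 20, 1 was higher, from 7.36 to 8.70 in WT and from 8.72 to 9.66 in Cygb-/- arrays (difference 1.36, adjusted p = 0.0169 from limma). The lowest were 3 probe sets with 1 shared profile. They stood at 5.27, 5.40, 5.48, 5.28 and 5.41 in inflamed Cygb-/- arrays, and at 9.20 or above in every other array of the series. The next lowest had a difference of -1.65 (adjusted p = 0.000496 from limma). Hspa8, a chaperone named after its values were seen, was called in 1 probe set (1.02, limma adjusted p = 0.00897) and in none of its other 3, which lay between -0.04 and 0.13.

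Genes of inflammation leaned to higher values without a call. Of 21 measured neutrophil genes 19 had a positive difference, with a median of 0.90, and 16 were at least 1.5-fold higher, beside 0.775% of all genes. 0 of them passed limma, and 12 had an unadjusted p below 0.05, beside 10.5% of all genes. Mmp8, the neutrophil collagenase, had 1.78 (adjusted p = 0.324), Trem1, an amplifying receptor, 1.11 (adjusted p = 0.342), Mmp9, a gelatinase, 1.09 (adjusted p = 0.185) and Trem3 0.69 (adjusted p = 0.134 from limma). The mean value of the list was 7.92, 6.44, 8.18, 6.74 and 6.32 in the 5 Cygb-/- arrays and 5.59, 6.24 and 7.16 (lowest, median and highest) in the WT arrays. Replicates 1 and 3 were high, and the other 3 lay within the WT range. Without replicate 3 the median difference of the list was 0.59. The list holds Mmp8, Mmp9, Trem3 and Lcn2, which the study had already reported as higher in these arrays. Its counts and median are therefore not independent of that report.

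Of 21 inflammatory cytokines 20 had a positive difference (median 0.38, 0 called, 9 with an unadjusted p below 0.05). The list mean was 6.22, 5.68, 6.43, 5.68 and 5.44 in the Cygb-/- arrays and 5.10 to 5.82 in the WT arrays. Replicates 1 and 3 alone lay above the WT range. Il1a had 1.53, with Cygb-/- arrays from 6.23 to 9.74 and WT arrays from 5.53 to 7.35, and Osm 0.80, Il17a 0.74 and Csf3 0.44 (adjusted p from 0.236 to 0.372 from limma). CXC chemokines, which draw neutrophils and lymphocytes, were positive in 12 of 14 (median 0.32, 0 called). Their list mean again exceeded the WT range (6.84 to 8.08) in replicates 1 and 3 alone, at 8.50 and 8.59. Cxcl2 had 1.55 with arrays from 6.60 to 8.75 against 4.74 to 6.69, Cxcl10 had 1.33, Cxcl9 had 0.92 and Cxcl1 had 0.81. Without Cygb-/- replicate 3 the median of the CXC chemokines was 0.14. The arrays overlapped in each of these 8 genes. Both lists hold genes that the study had reported as higher, among them Il17a, Osm, Cxcl1, Cxcl2 and Cxcl10. The counts and medians of these lists are not independent of that report.

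Matrix metalloproteinases and their inhibitors were positive in 13 of 17 (median 0.60, 0 called). Mmp3, a stromelysin, had 1.57 (limma adjusted p = 0.29), with Cygb-/- arrays from 5.56 to 8.33 and WT arrays from 4.20 to 7.30, and Mmp19 had 0.60 (limma adjusted p = 0.173). Timp4, an inhibitor, was below WT on every Cygb-/- array (-0.45, adjusted p = 0.143 from limma). The median of this list was 0.36 without Cygb-/- replicate 3. Macrophage genes had a median of 0.13, with 13 of 16 positive and 0 called. Chil3, a chitinase-like protein of activated macrophages, had the largest positive difference of any gene that was not called, 2.15 (standard error 0.48, adjusted p = 0.141 from limma), with 5.52 to 8.82 against 4.22 to 6.72. Itgam, Cd14 and Marco had 0.52, 0.57 and 0.58. The median was 0.06 without Cygb-/- replicate 1 and 0.22 without replicate 5. The mean of the macrophage list exceeded the WT range (7.52 to 8.22) in replicates 1 and 3 alone, at 8.57 and 8.55.

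Mast cell genes were positive in 8 of 10 (median 0.57), CC chemokines in 12 of 16 (0.24) and tuft cell genes in 9 of 10 (0.08), with 0 called in each. Of the mast cell genes 0 had an unadjusted p below 0.05, and 2 were positive in untreated colons. Their mean overlapped widely, at 5.40 to 7.32 in Cygb-/- and 4.67 to 7.09 in WT arrays. The CC chemokine mean exceeded the highest WT array (7.04) in Cygb-/- replicates 1 and 3 alone (7.20 and 7.51). T cell and B cell genes had medians of -0.08 and -0.08 with 4 of 10 and 3 of 9 positive. Interferon response genes were positive in 10 of 15 (median 0.13) and in 14 of 15 in untreated colons (median 0.24).

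**Figure D4:**
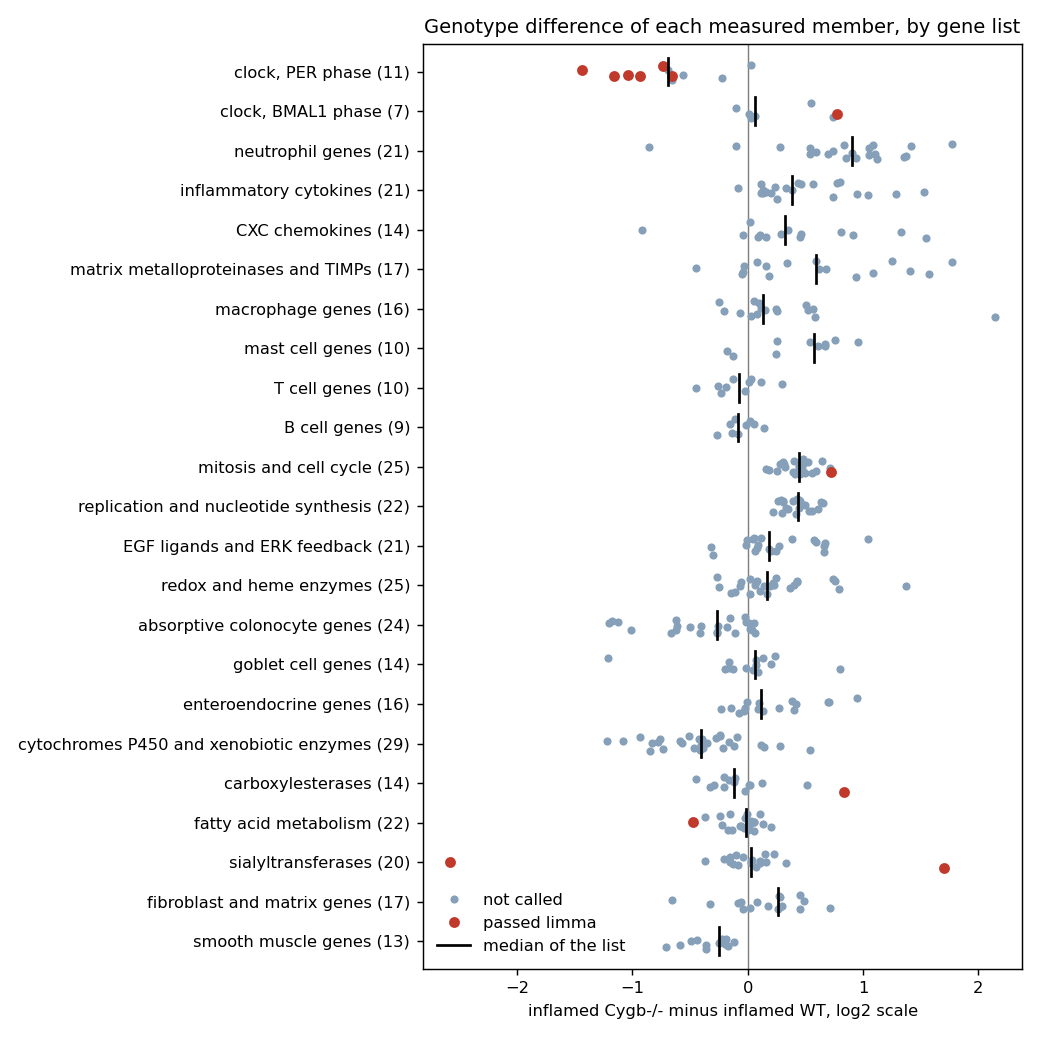
Difference between inflamed Cygb-/- and WT colons on the log2 scale (x axis) for each measured member of 23 gene lists (y axis, number measured in parentheses). Red points passed limma over all probe sets and black bars are list medians, which run from -0.69 for PER-phase clock genes to 0.90 for neutrophil genes.

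Genes of cell division were uniformly positive. All 25 measured mitosis and cell cycle genes had a positive difference (median 0.45), 1 was called and 20 had an unadjusted p below 0.05. All 22 of replication and nucleotide synthesis were positive (median 0.44, 0 called, 18 with an unadjusted p below 0.05). Over all genes 53.4% were positive and 10.5% had an unadjusted p below 0.05. In untreated colons 24 of the 25 were also positive (median 0.20), as were 16 of the 22 (median 0.05). In each list 1 gene passed the interaction test. Both lists hold genes that the study had already reported as higher in these arrays, among them E2f8, Trip13, Ctps, Asf1b and Rad54l. Their counts and medians are therefore not independent of it. E2f8, a repressor of the E2F family that acts late in the cycle, was the called gene. It lay between 7.29 and 7.54 in Cygb-/- and between 6.37 and 7.04 in WT arrays (difference 0.72, standard error 0.11, adjusted p = 0.0145, interaction 0.64 with adjusted p = 0.0193 from limma).

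Trip13, Aurkb and E2f2, which act in mitosis and at entry into the cycle, had 0.65, 0.59 and 0.55 and were not called. Tk1, thymidine kinase, was above WT on every Cygb-/- array (0.45, adjusted p = 0.0876), and Ctps, Asf1b and Rad54l had 0.66, 0.64 and 0.61 (adjusted p from 0.147 to 0.173 from limma). The genotype difference of Ctps, CTP synthase, differed between inflamed and untreated colons (interaction 0.82, adjusted p = 0.0264 from limma). Pold2, a subunit of DNA polymerase delta, and H2ac20, a histone H2A gene, both outside the lists, were called at 0.46 and 0.55. Pold2 lay between 8.10 and 8.42 in Cygb-/- and between 7.63 and 8.06 in WT arrays. The mean of the mitosis list lay between 7.46 and 7.75 in the Cygb-/- arrays and between 6.65 and 7.62 in the WT arrays, where replicate 5 alone reached the Cygb-/- range and replicate 3, at 7.44, lay just below it.

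Genes of the absorptive colonocyte, the cell that takes up salt and water, leaned lower. Of 24 measured, 19 had a negative difference (median -0.27), against 15 positive in untreated colons. 0 were called and 8 had an unadjusted p below 0.05, beside 10.5% of all genes. The list holds genes that the study had already reported as lower in these arrays, among them Slc26a3, Selenbp1, Car2 and Ppargc1a. Its count and median are therefore not independent of that report. Slc26a3, the chloride and bicarbonate exchanger, had -1.12 (adjusted p = 0.243), with 8.86 to 10.86 against 10.22 to 11.73, and Selenbp1, Car2 and Ppargc1a had -1.01, -0.66 and -0.61 (adjusted p from 0.166 to 0.257 from limma). The mean of the list was lowest in Cygb-/- replicate 3 (9.01), and the other 4 Cygb-/- arrays reached 9.52 to 9.77, within the WT range of 9.47 to 10.27. Cytochromes P450 and other enzymes of foreign compounds had a negative difference in 25 of 29 (median -0.40, 0 called), with Cyp2d12 at -1.08, Cyp2c68 at -0.85, Cyp3a13 at -0.74 and the alcohol dehydrogenase Adh1 at -0.41. Their median was -0.26 without Cygb-/- replicate 3. Cyp2d12, Cyp2c68 and Cyp3a13 were likewise in the study's own report of lower genes.

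Smooth muscle genes, from the muscle layers of the wall, were negative in 13 of 13 (median -0.25, 0 called, 6 with an unadjusted p below 0.05). Over all genes 46.6% were negative and 10.5% had an unadjusted p below 0.05. Myom1, Synpo2, Myh11 and Actg2, which build or anchor contractile filaments, had -0.71, -0.59, -0.44 and -0.36 (adjusted p from 0.119 to 0.361 from limma). The list mean lay between 8.96 and 9.66 in Cygb-/- and between 9.32 and 9.97 in WT arrays. Squamous genes, whose range over the arrays is given above, were negative in 14 of 17 (median -0.47, 0 called). The study had already reported Gjb5, Tmprss13 and Trpv3 of this list, and Myom1 of smooth muscle, as lower in these arrays. The counts and medians of both lists are not independent of that report. How far the makeup of the sampled tissue took part in these list values was not tested.

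**Figure D5:**
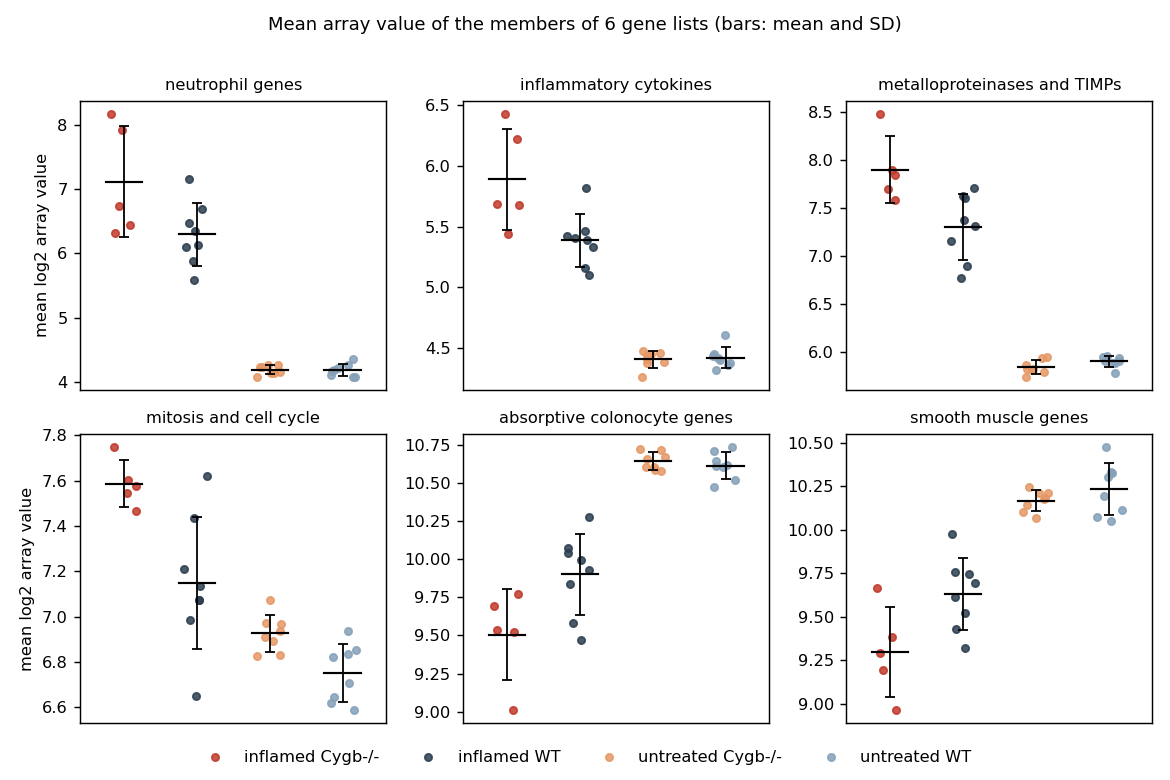
Mean log2 array value of the members of 6 gene lists (y axis), 1 point per array in the 4 groups, with mean and SD. Neutrophil genes lie at 6.32 to 8.18 in inflamed Cygb-/- and 5.59 to 7.16 in inflamed WT arrays, while both untreated groups lie at 4.07 to 4.36.

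Fibroblast and matrix genes were positive in 12 of 17 (median 0.27, 0 called, 11 with an unadjusted p below 0.05, beside 10.5% of all genes). In the study, Cygb protein was stained in fibroblast-like cells, while the most Cygb mRNA was reported in epithelial cells. Col1a1 and Col5a1, collagen chains, had 0.49 and 0.45 (adjusted p = 0.158 and 0.14 from limma). The genotype difference of Col5a1 differed between inflamed and untreated colons (interaction 0.51, adjusted p = 0.0366 from limma). Ecm2 and Pdgfra had -0.66 and 0.27. Redox and heme enzymes were positive in 19 of 25 (median 0.17, 0 called). Gatm, the first enzyme of creatine synthesis, was above WT on every Cygb-/- array (6.21 to 7.02 against 5.45 to 6.18, difference 0.80, limma adjusted p = 0.0708). Hmox1, heme oxygenase, Arg2, an arginase, and Gpx3, a glutathione peroxidase, had 0.76, 0.74 and 0.43 (adjusted p = 0.0996, 0.143 and 0.166 from limma).

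EGF ligands and feedback genes of ERK signalling were positive in 17 of 21 (median 0.19, 0 called). Spry4, Nrg1, Dusp6 and Nrg4 had 0.67, 0.66, 0.57 and 0.27 (adjusted p from 0.173 to 0.312 from limma), and the median was 0.09 without Cygb-/- replicate 2. Enteroendocrine genes were positive in 10 of 16 (median 0.12, 0 called), with the hormones Gcg, Ppy, Cck and Pyy at 0.95, 0.70, 0.70 and 0.40, and with a median of 0.24 without Cygb-/- replicate 3. Goblet cell genes were positive in 8 of 14 (median 0.06).

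Of the largest differences that were not called, Prok2 and Saa3 had 1.72 and 1.62. Saa3, an acute-phase protein, lay between 8.83 and 11.44 in Cygb-/- and between 8.11 and 10.71 in WT arrays. The lowest were Mptx1, a pentraxin of the gut (-1.49, limma adjusted p = 0.431), with Cygb-/- arrays from 4.67 to 8.81, Xist (-1.48), which rested on replicate 3, and Gm15998, H60c, Cyp2f2 and Ang4 (-1.39, -1.25, -1.22 and -1.21). H60c, a ligand of the NKG2D receptor of lymphocytes, came closest to a call of these 12 (limma adjusted p = 0.0876), and its interaction passed (-1.59, adjusted p = 0.0217 from limma). Ang4, an antimicrobial of goblet and Paneth cells, reached from 4.23 to 9.28 in Cygb-/- and from 5.74 to 10.69 in WT arrays.

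Of the 36 called genes 17 kept their call when any 1 of the 13 inflamed arrays was left out. These were BC018473, St6galnac1, Ccnb1ip1, Arntl, Nxpe4, Nxpe2, St3gal4, Cygb, Mettl23, Slc37a4, Pnp2, Plac9a, Fam124a, Gm3219, Dbp, Per3 and Ciart. Without Cygb-/- replicate 3, the array with low Xist, 21 of the 36 kept their call, and without the other Cygb-/- arrays 19 to 27. Tef lost its call without any 1 of 7 of the 13 arrays, and Cry2 and Hlf each without any 1 of 9, Cygb-/- and WT arrays alike (their highest adjusted p with any 1 array left out was 0.108, 0.114 and 0.105 from limma), and E2f8 lost its call without replicates 2, 3 or 4. Cphx1 lost it without replicate 4, 4930581F22Rik without replicates 2, 4 or 5, and Scd1 without replicates 1, 2 or 4 or WT replicate 4. The other 12 called genes, among them Ces1g, Jhy, Abca5, Tmem25, Npy4r, Mir23b, Pold2 and H2ac20, each lost their call without any 1 of 6 to 12 of the 13 arrays, with every left-out difference of the same sign and adjusted p in limma up to 0.139.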

How the data were processed

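The authors measured colonic RNA of 29 mice on Affymetrix mouse gene ST arrays and deposited 1 log2 value per probe set and array, computed by RMA with normalization between arrays (versions and genome build are not given in the sources used here). No detection call or read depth accompanies the values, so precision rests on the number of arrays. From these values limma 3.58.1 in R 4.3.3 was fitted to the 13 inflamed arrays (two-sided, Benjamini-Hochberg over 41345 probe sets, threshold 0.05), and separately to the 16 untreated arrays and, for the interaction, to all 29. A gene was represented by its singly annotated probe set with the highest mean over all arrays. Named genes were all called genes, up to 4 members with the smallest p of each list described, and the 6 largest differences in each direction that were not called, while Hspa8, Alg3 and Pdzd3 were named after their values were seen. The arrays, gene lists and promoter motifs were chosen with earlier results of these data known. Lists such as those of clock genes, metalloproteinases, chemokines, cytokines, neutrophils, macrophages and cell division hold genes the study reported as differing between these arrays. So do those of colonocytes, cytochromes P450, squamous epithelium, smooth muscle, fibroblasts, enteroendocrine cells, redox enzymes and EGF ligands. The counts and medians of all these lists are not independent of that report. The code was checked on simulated data. Gene lists were described by counts and medians without a test. Alternatives changed normalization, filter, variance model, weights, probe sets, arrays and test.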

Additional observations from a re-analysis of the deposited data

Results flagged for a closer look

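In 12 of 224 groups of array values 1 array lay far from the others of its group by Dixon's criterion, which chance alone meets in about 1 in 20 groups. Inflamed WT replicate 8 was the highest of its group for Saa3 (10.71), Mmp3 (7.30), Cxcl10 (8.97), Marco (6.12) and St3gal1 (8.21), and replicate 1 for Actg2 (11.61). Inflamed WT replicate 3 was the lowest for Abca5 (5.01). Inflamed Cygb-/- replicate 3 was the lowest for Xist (3.82), Selenbp1 (8.55) and Cyp2c68 (6.15), replicate 5 was the lowest for Gpx3 (6.32) and replicate 4 the highest for Nrg4 (5.44).

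For 22 named genes the genotype difference itself differed between inflamed and untreated colons in limma's interaction test. The inflamed difference was the higher one, on the log2 scale, for BC018473 (by 1.99), Ccnb1ip1 (1.49), Arntl (1.30), Ctps (0.82), Gm11714 (0.68), E2f8 (0.64), Sf3b5 (0.53) and Col5a1 (0.51). It was the lower one for Nxpe4 (-4.13), St3gal4 (-2.88), Nxpe2 (-2.60), Dbp (-2.08), Ciart (-1.92), Pnp2 (-1.87), H60c (-1.59), Per3 (-1.36), Tef (-1.31), Hlf (-0.84), Slc37a4 (-0.69), Fam124a (-0.68), Tmem25 (-0.59) and Ankrd12 (-0.56). Ctps, Col5a1 and H60c were not called in the inflamed comparison. Another probe set of Col5a1 had a difference of 0.09 in inflamed colons.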

How the results depend on the processing

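The 14 higher and 55 lower probe sets of the inflamed comparison became 28 higher with probe sets above the median level alone, 28 higher with array quality weights, 31 lower with singly annotated probe sets, 192 higher and 211 lower with all 29 arrays in 1 fit, and 98 and 217 by the methods' t-test after a 1.5-fold filter. Without 1 array they ranged from 6 (without Cygb-/- replicate 4) to 34 higher (without WT replicate 5) and from 37 to 64 lower. The 5 higher and 4 lower of the untreated comparison became 13 and 18 above the median level, 11 and 12 with a trended, robust variance, 9 and 12 with singly annotated probe sets, and 9 and 7 with all 29 arrays. The 19 higher and 42 lower of the interaction became 31 higher above the median level and 44 and 67 with array weights, and ranged from 12 to 73 higher (without Cygb-/- replicates 4 and 5) and 27 to 64 lower without 1 array (without Cygb-/- replicate 3 and WT replicate 8). The causes were not tested.

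With the label's number as a replicate block, there were 2 higher and 9 lower probe sets in inflamed colons, 3 and 2 in untreated colons, and 17 and 37 in the interaction. Under the block 11 of the 69 inflamed probe sets and 4 of the 36 genes (Cygb, BC018473, Nxpe4 and Ccnb1ip1) kept their call, and all 69 kept their sign. The inflamed WT arrays whose number no Cygb-/- array shares do not inform the blocked difference, so it rests on fewer arrays. In their deviations from the group means 3 of 5 same-numbered inflamed pairs correlated at 0.39 to 0.435 and the other 2 at -0.273 and -0.0844, and 2 of 5 arrays correlated best with their own number. The 8 untreated pairs lay between -0.171 and 0.0406. The labels do not say what a number marks and not every pair was above 0.1, so the numbers were not taken as pairs, and whether some inflamed arrays share a batch was not tested.

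The called genes kept their sign without any 1 array. Among values that were not called, Hspa8 turned sign without 1 array (from -0.084 to 0.0053), as did Nxpe3 (-0.17 to 0.0159), and, in the interaction, Mir23b (-0.095 to 0.0252), Mettl23 (-0.10 to 0.00091) and Cygb (-0.16 to 0.00029). Cygb, BC018473, Nxpe4 and Ccnb1ip1 kept their inflamed call under every alternative that tested their probe set. No array gives a detection limit, and values near the lower quartile understate folds.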
